A study of Manihot esculenta with 9 samples.

Results

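The genes described here are the cassava genes for building and dismantling pectin other than the pectin methylesterases (*MePMEs*). They were taken from the deposited expression table by the wording of their gene descriptions: pectin lyase-like, pectate lyase, polygalacturonase, galacturonosyltransferase, rhamnogalacturonate lyase, pectin acetylesterase or quasimodo, without the 89 *MePMEs* and without methylesterase inhibitors. This gave 233 of the 33033 genes in the table. The largest group was the pectin lyase-like superfamily with 165 genes, followed by 30 galacturonosyltransferase and QUASIMODO2-like genes, 11 pectin acetylesterases, 11 rhamnogalacturonate lyases, 8 pectate lyases, 6 genes described as polygalacturonase 2 or 4, and 2 polygalacturonase-inhibiting proteins (PGIPs).

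Mature leaves of wild-type cassava (*Manihot esculenta*) were sampled from seedlings that had been raised from stem segments in closed bottles of sterile MS medium and were 60 days old. The MS group received nothing further, the ABA group received abscisic acid, the hormone of the water stress response, at 50 μmol/L, and the PEG group received PEG6000, an osmotic agent that withholds water, at 7%. Leaves were taken 48 h after treatment, with 3 RNA-seq libraries a group. The study calls its libraries biological replicates. Whether 1 plant gave 1 library was not stated, so p-values measure the spread between these libraries, which may be partly technical.

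Pectin is the gel-like, galacturonic acid-rich part of the plant primary wall. Its homogalacturonan backbone is built in the Golgi by galacturonosyltransferases (GAUTs), leaves the Golgi methylesterified and partly acetylated, and is trimmed in the wall by methylesterases and acetylesterases. Demethylated stretches can be crosslinked by calcium or cut, by pectate lyases through elimination and by polygalacturonases through hydrolysis, while rhamnogalacturonate lyases cut the branched rhamnogalacturonan I. PGIPs are leucine-rich repeat proteins of the wall that bind and inhibit polygalacturonases of pathogens. In leaves these enzymes are known for their part in cell expansion, cell separation and the movement of guard cell walls.

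Total read counts were 13923803 to 16378389 in the MS libraries, 14850183 to 15690202 in the ABA libraries and 15847859 to 17108746 in the PEG libraries. All 24 light-harvesting and rubisco small subunit genes had reads, and their summed level separated the groups, at 4421 to 5006 FPKM (fragments scaled to gene length and library size, as the authors deposited them) in MS, 1321 to 1421 FPKM in ABA and 10245 to 10608 FPKM in PEG. Of all genes tested, 32.9% rose and 33.4% fell under ABA, and 35.6% rose and 35.1% fell under PEG. Of 30 cyclin genes tested, 20 rose and 3 fell under ABA and 29 rose and 1 fell under PEG, with summed levels of 38.0 to 38.9 FPKM in MS, 71.7 to 76.5 FPKM in ABA and 139 to 141 FPKM in PEG. Of 6 xylem wall genes tested, 5 rose under each treatment (summed 2.88 to 4.43, 6.68 to 7.57 and 7.75 to 8.59 FPKM in MS, ABA and PEG), and of 4 guard cell genes tested, 1 rose and 3 fell under each (12.2 to 13.2, 8.38 to 9.94 and 14.7 to 15.3 FPKM). The part of these markers in the results below was not tested, and in whole leaves a change in the share of a cell type cannot be told apart from a change of RNA per cell. Late embryogenesis abundant and dehydrin genes, usually raised by water shortage, were lower in PEG than in MS: of 48 tested, 33 fell and 8 rose. Under ABA 17 rose and 16 fell (35.4% and 33.3%, near the shares of all genes). Without the hydroxyproline-rich family that shares their description, a split made after the values were seen, 16 of 20 fell and 2 rose under PEG. Under ABA 12 of these 20 rose and 5 fell. The summed level of this shorter list was 1107 to 1476 FPKM in MS, 2018 to 2082 FPKM in ABA and 800 to 817 FPKM in PEG. An exchange of the MS and PEG labels cannot be told apart from this pattern in these data. It would turn the sign of every PEG against MS difference and put the difference between PEG and ABA, with its sign turned, in the place of that between ABA and MS. The direct difference of PEG from ABA is therefore also given for many of the genes below, and every PEG direction holds for the labels as given.

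Most of the pectin genes were not expressed enough in leaf to be tested. Of the 233 genes, 122 had at least 1 read in the 9 libraries and 111 had none. After edgeR's filter on low counts, 89 were tested. The other 33 with reads had 1 to 65 reads over the 9 libraries, with a median of 5. The tested genes were 37 of the 165 pectin lyase-like genes, 27 of the 30 galacturonosyltransferases, 10 of the 11 pectin acetylesterases, 6 of the 11 rhamnogalacturonate lyases, 3 of the 8 pectate lyases, 4 of the 6 polygalacturonases and both PGIPs.

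**Figure D1:**
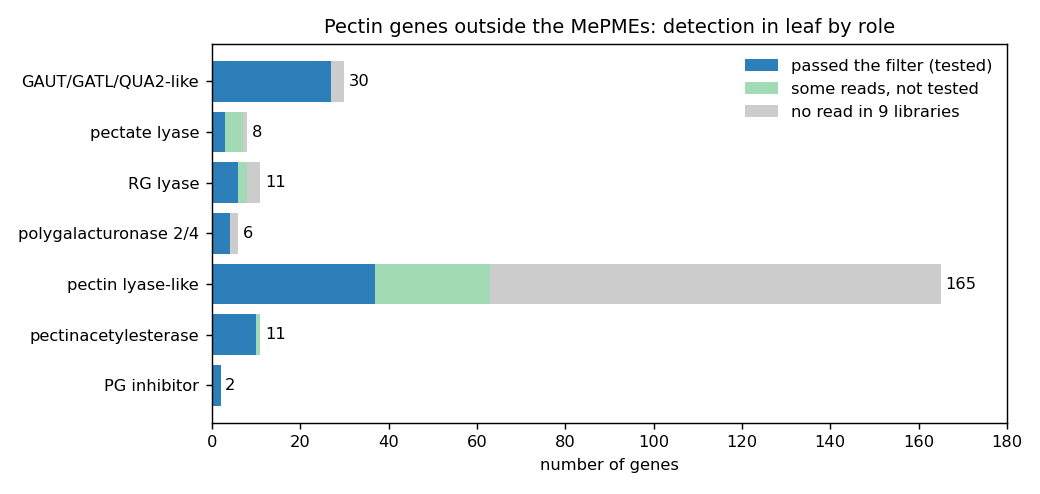
Number of pectin genes by role, split into genes tested, genes with some reads that were not tested and genes without a read in the 9 libraries. The galacturonosyltransferase bar is nearly all tested (27 of 30), whereas most of the pectin lyase-like bar (165 genes, 37 tested) had no read.

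The genes without reads lay mainly in tandem arrays. Counting genes of the set with at most 2 other genes between them as 1 array, 123 genes lay in 32 arrays and 36 of them (29.3%) had a read, against 86 of the 110 genes that stood alone (78.2%). The largest array held 18 pectin lyase-like genes on chromosome 7 from 17758795 to 17897200 (cassava genome v6.1), of which 1 had a read. An array of 11 on an unplaced scaffold had none. In the deposited table the nearest Arabidopsis genes of the array of 18 are AT3G07830, AT3G07840 and AT3G14040, and those of the array of 11 are AT3G07830 and AT3G07840, relatives of AT3G07820 that encode exopolygalacturonases of pollen in Arabidopsis. In all, 77 cassava genes matched one of these 4 Arabidopsis genes, and 75 of them had no read, the other 2 genes having 1 read each. A count of 0 in a library allows up to 3 reads, for counting error only, and the treatment of reads that fit several near-identical copies was not stated, so low expression of single copies was not detectable.

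Over the 89 tested genes, 36 rose, 28 fell and 25 did not pass under ABA, where rising and falling mean a Benjamini-Hochberg adjusted p under 0.05 in edgeR's quasi-likelihood test. Among all 23984 genes tested, 66.3% passed, 32.9% upward and 33.4% downward. Under PEG 41 rose, 24 fell and 24 did not pass, beside 70.7% of all genes passing, 35.6% upward and 35.1% downward. PEG and ABA differed directly for 71 of the 89 genes, 37 higher and 34 lower under PEG, beside 74.7%, 39.1% and 35.6% of all genes. The share of pectin genes that passed, at any size of change, was thus near that of all genes. The median log2 fold change of the 89 genes was 0.16 under ABA, 0.23 under PEG and -0.03 for PEG against ABA, beside 0.00, 0.00 and 0.05 over all genes. With a change of at least 2-fold also required, 22 of the 89 rose and 6 fell under ABA, beside 10.6% and 8.79% of all genes. Under PEG 23 of the 89 rose and 10 fell, beside 12.4% and 9.72% of all genes. Between the treatments 19 were higher and 16 lower under PEG than under ABA, beside 16% and 12.9%. Rises of at least 2-fold thus made up a larger share of the 89 genes than of all genes under each treatment. This difference in shares was not tested. ABA and PEG were both compared with the same 3 MS libraries.

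Summed over roles, the largest shifts in FPKM were those of the abundant pectin acetylesterases, and the largest fold shifts those of small groups. The pectin acetylesterases summed to 796 ± 16.8 FPKM in MS, 646 ± 11.2 FPKM in ABA and 586 ± 9.89 FPKM in PEG (SD, n = 3 libraries), and the pectin lyase-like genes to 267 ± 5.76, 312 ± 5.89 and 357 ± 2.83 FPKM. The former held the largest part of the summed FPKM of all 233 genes, 56.7% ± 0.755 (SD, n = 3 libraries) in MS, 50.7% ± 0.362 in ABA and 43% ± 0.264 in PEG, since 3 of them were the 3 most expressed genes of the set. The summed level of the genes described as pectate lyase was 8.07 ± 0.153 FPKM in MS, 14.4 ± 1.09 FPKM in ABA and 75.4 ± 1.92 FPKM in PEG (SD, n = 3). The PGIPs went from 46.5 ± 3.95 FPKM in MS to 12.4 ± 0.486 FPKM in ABA and stood at 52 ± 3.45 FPKM in PEG. The galacturonosyltransferases stayed within a narrow band, at 260 ± 2.2, 227 ± 2.33 and 241 ± 4.34 FPKM in MS, ABA and PEG.

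**Figure D2:**
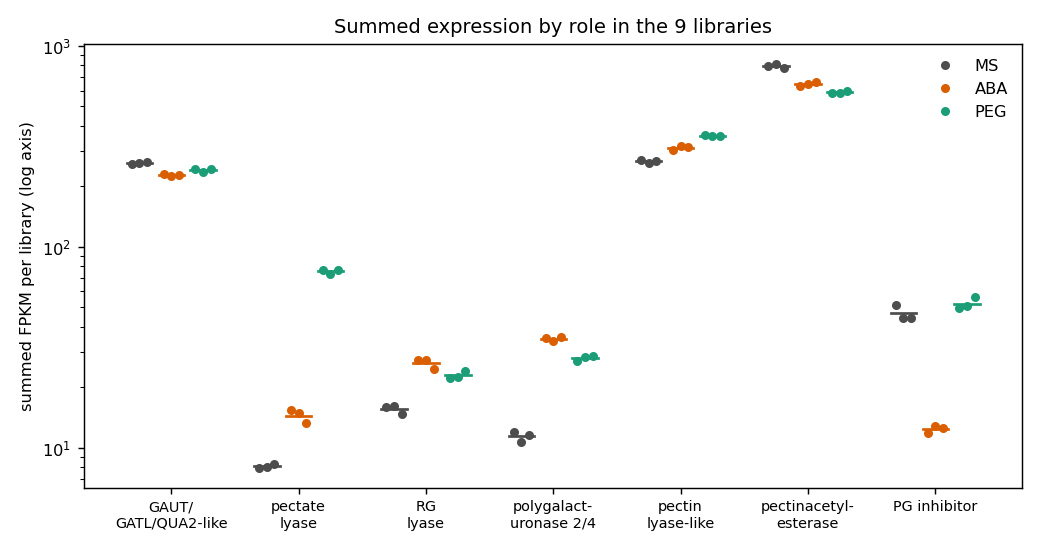
Summed FPKM (log axis) of each role in each of the 9 libraries, with a line at the mean of 3 libraries. The genes described as pectate lyase are highest in PEG (73.2 to 76.7 FPKM) and the PGIPs lowest in ABA (11.8 to 12.8 FPKM). The pectin acetylesterases are the highest role in every library.

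Synthesis comes first. Of the 27 galacturonosyltransferase and QUASIMODO2-like genes tested, 9 rose and 13 fell under ABA (33.3% and 48.1%, beside 32.9% and 33.4% of all genes). Under PEG 6 rose and 11 fell (22.2% and 40.7%, beside 35.6% and 35.1%). Most changes were small: only 2 fell and 1 rose at least 2-fold under ABA, and 2 fell and 0 rose under PEG. Of all genes, 8.79% fell and 10.6% rose at least 2-fold under ABA, and 9.72% fell and 12.4% rose under PEG. *GAUT1*, the catalytic core of the homogalacturonan-building complex in Arabidopsis, had 2 cassava matches. Manes.01G264000 (chromosome 1, 33609844 to 33615469) was the most expressed gene of the role, at 44.7, 45.1 and 46.2 FPKM in the MS libraries, 54, 52.1 and 54.7 FPKM in ABA and 52.8, 49.6 and 49.6 FPKM in PEG. Both treated groups lay above MS without overlap in FPKM. After TMM scaling the gene rose under ABA (log2 fold change 0.31, standard error 0.03, edgeR adjusted p = 1.1e-05) and did not pass under PEG (0.03, standard error 0.03, edgeR adjusted p = 0.497), but it passed under PEG, at 0.16, with no scaling beyond library size. Its lower copy Manes.05G042200 rose under both (log2 fold changes 0.45 and 0.27).

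*GAUT7*, which holds *GAUT1* in the Golgi in Arabidopsis, also had 2 matches. Manes.09G119300 rose by log2 fold changes of 0.26 under ABA and 0.29 under PEG, and Manes.08G165700 rose by 0.31 under PEG with 0.01 under ABA, which did not pass. The *GAUT4* match Manes.08G015300 fell under ABA (log2 fold change -0.46) and rose under PEG (0.23). Both matches of *GAUT11*, a gene of seed mucilage pectin in Arabidopsis, fell under both treatments, as did the single matches of *GAUT13* and *GAUT14*, which serve pollen tube walls in Arabidopsis. For *GAUT11* the log2 fold changes were -0.59 and -0.35 under ABA and -0.81 and -0.55 under PEG. *GAUT12*, known in Arabidopsis as IRREGULAR XYLEM8 and needed for secondary walls, had 2 matches with few reads. Manes.15G076900 was at 0.377 ± 0.248 FPKM in MS, 0.919 ± 0.293 FPKM in ABA and 0.448 ± 0.155 FPKM in PEG (SD, n = 3), and rose under ABA (ratio of mean FPKM 2.43, edgeR adjusted p = 0.0196). The part of the xylem genes, which also rose, was not tested.

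The larger shifts of this role were in the GAUT-like (GATL) branch, shorter relatives of the GAUTs. Manes.14G097800 (GATL3 match, chromosome 14, 7894045 to 7895112) had 39.5, 40.1 and 36.4 FPKM in MS, 6.62, 6.56 and 7.85 FPKM in ABA and 12.7, 13.6 and 13.6 FPKM in PEG. MS was highest and ABA lowest, with no overlap between any groups. It fell under ABA (log2 fold change -2.40, standard error 0.08, edgeR adjusted p = 2.54e-10) and under PEG (-1.67, standard error 0.08, edgeR adjusted p = 2.6e-09). The second GATL3 match, Manes.06G071900 (chromosome 6, 18680259 to 18682596), had 3.23, 3.59 and 3.73 FPKM in MS, 0.95, 0.981 and 0.66 FPKM in ABA and 4.65, 3.92 and 4.97 FPKM in PEG. This copy fell under ABA (log2 fold change -1.96, standard error 0.16), while under PEG its value of 0.22 (standard error 0.13) did not pass, though it passed at 0.36 without scaling and at 0.28 with limma at a pseudocount of 1. PEG was above ABA for both GATL3 matches, by log2 differences of 0.73 (standard error 0.08) and 2.18 (standard error 0.16).

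Of the other GATL genes tested, Manes.05G001000 (GATL7 match) and Manes.13G135500 (GATL2 match) fell under both treatments, by log2 fold changes of -0.28 and -0.48 under ABA and -0.23 and -0.57 under PEG. Manes.01G224000 (GATL7 match, chromosome 1, 30966594 to 30968948) fell under PEG, from 13.8 ± 0.984 FPKM in MS to 5.43 ± 0.255 FPKM (log2 fold change -1.48, standard error 0.07), with 15.4 ± 0.725 FPKM in ABA (0.22, a rise that was lost without MS replicate 2 and without scaling). It was lower under PEG than under ABA by a log2 difference of -1.70 (standard error 0.07, edgeR adjusted p = 4.49e-10). Manes.16G054300 (GATL4 match, chromosome 16, 12994236 to 12998954) fell under ABA, from 11.9 ± 0.532 to 6.07 ± 1.47 FPKM (log2 fold change -0.92, standard error 0.14). Its model shares 147 bases with that of Manes.16G054400, and without a stated strand setting the reads of overlapping genes cannot be told apart. The 2 matches of QUASIMODO2 LIKE 2, a relative of the Golgi methyltransferase QUASIMODO2, differed: Manes.05G108800 rose under ABA (log2 fold change 0.54) and Manes.01G028700 rose under PEG (0.51).

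**Figure D3:**
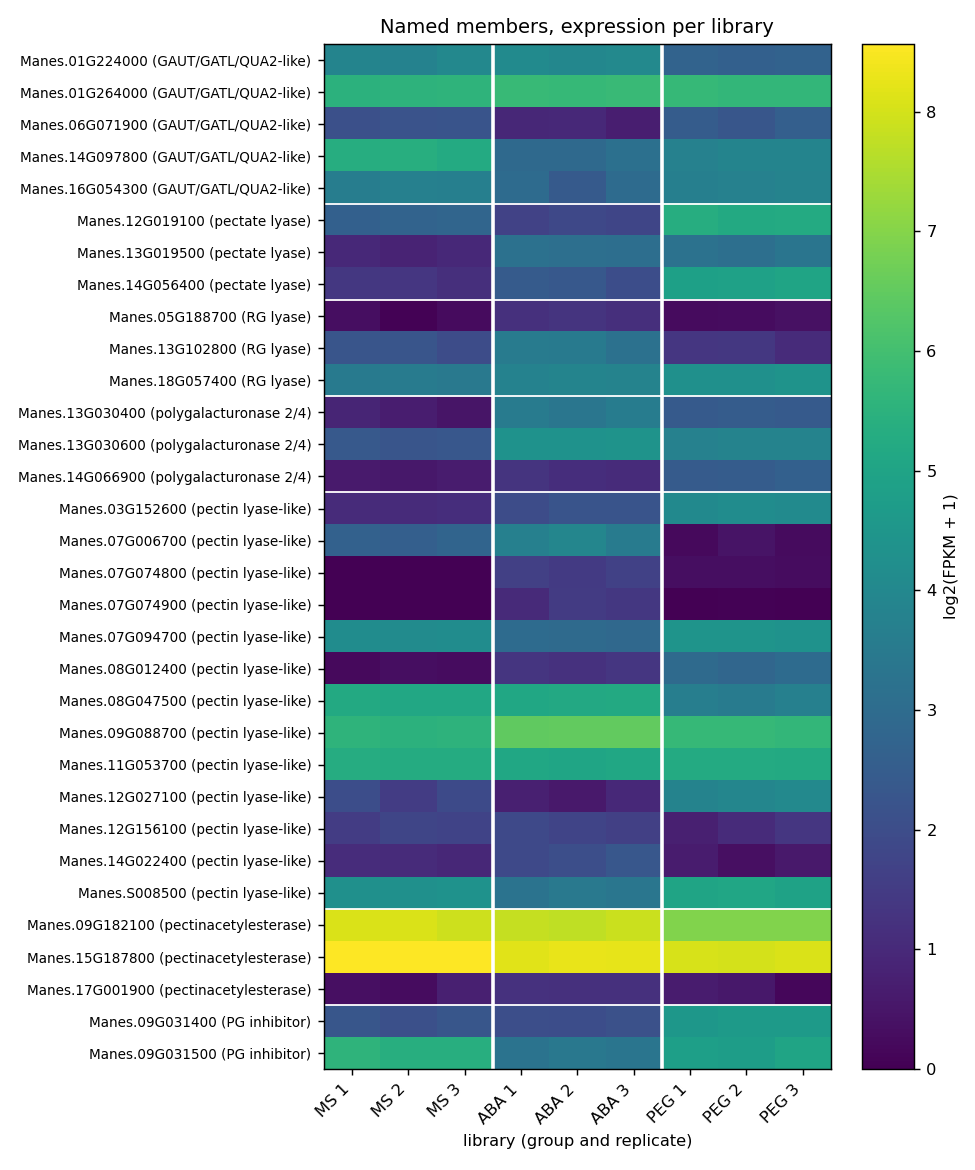
Expression of 32 pectin genes, grouped by role, in each of the 9 libraries as log2(FPKM + 1). The 3 libraries of a group share their shade in most rows, and the pectin acetylesterases Manes.15G187800 and Manes.09G182100 are the brightest in every library.

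Genes described as pectate lyase had the largest fold rise of any role in summed FPKM under PEG. Further pectate lyases may stand among the pectin lyase-like genes, so this is not the sum of all cassava pectate lyases. All 3 tested genes of the role matched AT1G67750, lay on 3 chromosomes and rose under PEG, as did 35.6% of all genes. Manes.12G019100 (chromosome 12, 1468632 to 1470615) had 5.23, 5.6 and 5.97 FPKM in MS, 2.25, 2.59 and 2.42 FPKM in ABA and 39.3, 36 and 36.8 FPKM in PEG. The groups did not overlap, with ABA lowest and PEG far above both. It fell under ABA (log2 fold change -1.15, standard error 0.09, edgeR adjusted p = 3.86e-07) and rose under PEG (2.60, standard error 0.07, edgeR adjusted p = 3.43e-11).

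Manes.14G056400 (chromosome 14, 4426883 to 4429087) had 1.62, 1.56 and 1.25 FPKM in MS, 4.56, 4.18 and 3.03 FPKM in ABA and 28.5, 29.2 and 30.8 FPKM in PEG. Here the order was MS, ABA and PEG, without overlap, and the gene rose under both treatments (log2 fold changes 1.48 and 4.19, standard errors 0.16 and 0.14). Manes.13G019500 (chromosome 13, 1876657 to 1879104) had 0.988, 0.809 and 0.98 FPKM in MS, 8.26, 7.78 and 7.58 FPKM in ABA and 8.37, 7.67 and 9.01 FPKM in PEG. It rose about equally under both (log2 fold changes 3.14 and 3.03, standard error 0.12 each), and its difference between PEG and ABA did not pass (-0.11, standard error 0.09, edgeR adjusted p = 0.283). The other 2 genes were higher under PEG than under ABA, by log2 differences of 3.75 and 2.71. For each of the 3 genes a two-sided exact permutation test of PEG against MS on FPKM gave p = 0.1, the smallest that 3 against 3 libraries allow. Groups without overlap always give this value, and the genes were picked for lack of overlap. The test is therefore no separate check.

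**Figure D4:**
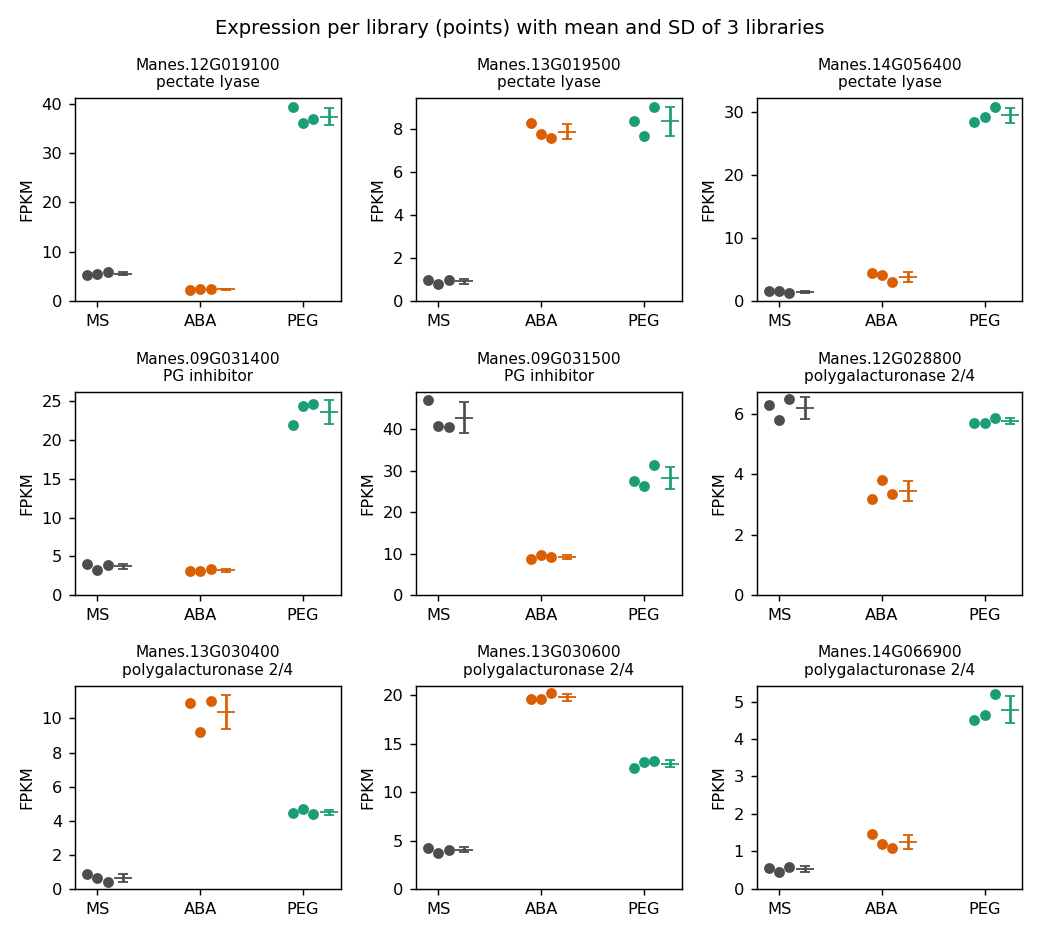
FPKM of the 3 pectate lyases, the 2 PGIPs and the 4 polygalacturonase 2 genes in each library (points), with mean and SD of 3 libraries beside them. Manes.12G019100 reaches 36 to 39.3 FPKM in PEG against at most 5.97 FPKM elsewhere, and the PGIP Manes.09G031500 lies between 8.68 and 9.73 FPKM in ABA against at least 26.2 FPKM elsewhere.

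Genes described only as pectin lyase-like made up the largest tested role. The superfamily name covers a fold shared by pectate lyases and polygalacturonases, so the enzyme activity of most of its members cannot be read from the description. Of the 37 tested, 15 rose and 9 fell under ABA (40.5% and 24.3%, beside 32.9% and 33.4% of all genes). Under PEG 22 rose and 6 fell (59.5% and 16.2%, beside 35.6% and 35.1% of all genes). All 4 tested matches of AT4G13710 rose under PEG. Manes.15G048700 (chromosome 15, 3649674 to 3653914) was the highest of them, with 9.44, 8.53 and 8.79 FPKM in MS, 8.88, 8.28 and 7.93 FPKM in ABA and 39, 36.3 and 37.6 FPKM in PEG. MS and ABA overlapped and PEG stood apart (log2 fold change 1.94, standard error 0.06). Manes.03G152600 (chromosome 3, 24837163 to 24841258) had 1.09, 1.08 and 1.16 FPKM in MS, 2.99, 3.67 and 3.67 FPKM in ABA and 15.6, 16.8 and 16.2 FPKM in PEG. It rose under both treatments, by log2 fold changes of 1.69 and 3.73 (standard errors 0.12 and 0.11), and these 2 genes were higher under PEG than under ABA by 1.97 and 2.04. The lower copies Manes.12G042700 and Manes.13G043900 rose under PEG by 1.10 and 2.15.

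Under the labels as given, the largest rise under PEG in a gene detected in every group was that of Manes.08G012400 (AT3G53190 match, chromosome 8, 903485 to 906646). It had 0.152, 0.249 and 0.226 FPKM in MS, 1.5, 1.31 and 1.56 FPKM in ABA and 6.87, 6.12 and 6.97 FPKM in PEG, with no overlap. The log2 fold changes were 2.83 (standard error 0.22) under ABA and 4.82 (standard error 0.18, edgeR adjusted p = 3.85e-10) under PEG, with PEG above ABA by 1.99 (standard error 0.12). As labelled, its MS level of at most 0.249 FPKM lay near the floor, so a call under either treatment could hardly have been a fall. With MS and PEG exchanged the gene would be a fall under PEG of the same size. Manes.12G027100 (AT1G60590 match, chromosome 12, 2092299 to 2096886) went in opposite directions, with 3.11, 1.87 and 2.78 FPKM in MS, 0.673, 0.495 and 0.968 FPKM in ABA and 13.2, 14.3 and 15.4 FPKM in PEG. It fell under ABA (log2 fold change -1.79, standard error 0.24) and rose under PEG (2.33, standard error 0.17), a difference between the treatments of 4.13 (standard error 0.21, edgeR adjusted p = 3.89e-09).

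Manes.10G051500 and Manes.07G094700, both matches of AT5G04310, fell under ABA by log2 fold changes of -0.90 and -1.24. The former rose under PEG (1.31), and the latter was at 0.13, a call that was lost in 5 of the 9 fits that leave out 1 library and with DESeq2. Manes.S008500 (AT4G23820 match, on a scaffold from 231508 to 238384) had 18.7, 18.9 and 19.4 FPKM in MS, 8.69, 10 and 9.38 FPKM in ABA and 30.8, 32.3 and 29.9 FPKM in PEG. It was lowest in ABA and highest in PEG without overlap (log2 fold changes -0.96 and 0.57, standard error 0.06 each), PEG being above ABA by 1.53.

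Among the pectin lyase-like genes, Manes.07G006700 and Manes.14G022400, both picked for their falls under PEG, rose under ABA. Over all roles, 6 tested genes of the set rose under ABA and fell under PEG, and 8 fell under ABA and rose under PEG. Whether these counts differ from those among all genes was not tested. Manes.07G006700 (chromosome 7, 816941 to 819801) matched *QUARTET2*, a polygalacturonase that in Arabidopsis lets pollen grains and floral organs separate. It had 5.27, 4.98 and 5.79 FPKM in MS, 12.2, 14.1 and 10.9 FPKM in ABA and 0.168, 0.375 and 0.18 FPKM in PEG, with 17 reads left over the 3 PEG libraries against 340 in MS and 793 in ABA. It rose under ABA (log2 fold change 1.28, standard error 0.13, edgeR adjusted p = 4.99e-06) and fell under PEG (-4.56, standard error 0.23, edgeR adjusted p = 7.05e-09), the largest fall in the set. The difference between the treatments was -5.84 (standard error 0.21, edgeR adjusted p = 1.78e-10).

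The other 2 *QUARTET2* matches did not share that fall. Manes.08G049800 rose under ABA by the same log2 fold change of 1.28 (standard error 0.20) and was at -0.30 under PEG (standard error 0.24), which did not pass. Manes.09G024100 rose under PEG by 0.75 (standard error 0.25), but its model shares 1073 bases with that of Manes.09G024000, so its reads cannot be assigned with certainty. Manes.14G022400 (AT3G48950 match, chromosome 14, 1986557 to 1988991) also rose under ABA, with 1.14, 1.06 and 0.932 FPKM in MS, 2.74, 3.13 and 3.98 FPKM in ABA and 0.568, 0.264 and 0.499 FPKM in PEG. It fell under PEG, with log2 fold changes of 1.72 (standard error 0.21) and -1.36 (standard error 0.29) and a difference of PEG from ABA of -3.08 (standard error 0.24). The *QUARTET3* match Manes.16G050800, whose Arabidopsis relative degrades pectin around pollen mother cells, had 4 reads in MS, 2 in ABA and 72 in PEG and rose under PEG (log2 fold change 3.78, standard error 0.42). At this low level the ABA difference of -0.84 (standard error 0.88) was not detectable. The gene passed the filter on low counts only through its PEG libraries, so a call under PEG could hardly have been a fall.

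The most expressed pectin lyase-like genes changed less or in 1 treatment. Manes.09G088700 (AT3G55140 match, chromosome 9, 18226133 to 18231665) had 46, 44.1 and 45 FPKM in MS, 88.7, 89.8 and 90.4 FPKM in ABA and 52.8, 52 and 49.9 FPKM in PEG. It rose under ABA (log2 fold change 1.06, standard error 0.03, edgeR adjusted p = 1.57e-10) and did not pass under PEG (0.06, standard error 0.03, edgeR adjusted p = 0.113), where it passed at 0.20 without scaling and at 0.09 without PEG replicate 3. Manes.08G047500 (AT3G57790 match, chromosome 8, 4508115 to 4514661) had 35.5, 33.8 and 33.9 FPKM in MS, 33.4, 35.4 and 35.8 FPKM in ABA and 11.6, 10.9 and 12.2 FPKM in PEG. Only PEG stood apart, at a log2 fold change of -1.70 (standard error 0.05) and a difference from ABA of -1.79 (standard error 0.05). Manes.11G053700 (AT1G80170 match, chromosome 11, 5247521 to 5255156) was the steadiest of the 3, at 37.9 ± 0.202, 33 ± 0.783 and 36.5 ± 0.457 FPKM in MS, ABA and PEG (SD, n = 3), and its log2 fold changes of -0.14 and -0.19 passed, the former not with DESeq2 (-0.12) and the latter not without scaling (-0.05). Manes.12G156100 (AT4G33440 match, chromosome 12, 31376883 to 31379851) fell under PEG (log2 fold change -1.15, standard error 0.25), with 639 bases shared with the model of Manes.12G156000.

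A group of near-silent pectin lyase-like genes was read almost only in the ABA libraries. Among genes with at least 30 reads in 1 group and none in another, the set held 2, which are neighbours on chromosome 7. Manes.07G074800 (14874440 to 14875901) had 36, 33 and 38 reads in the ABA libraries, 5, 5 and 4 in PEG and none in MS. Manes.07G074900 (14892365 to 14893910) had 19, 36 and 30 reads in ABA, 0, 1 and 0 in PEG and none in MS. Against a floor of 3 reads over the 3 MS libraries, they were at least 35.5-fold and at least 28.2-fold higher in ABA, at levels of at most 2.15 FPKM. Both were picked for 0 reads in MS and passed the filter on low counts only through their ABA libraries. A call against MS could therefore not have been a fall, though both are counted among the genes that rose under ABA.

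Both are matches of AT3G59850, as are 10 other cassava genes on chromosomes 1, 5 and 7, a group looked at after these values were seen. Over the 12 genes the MS libraries held 0 reads, the ABA libraries 249 reads (78 to 90 a library, from 7 genes) and the PEG libraries 15 reads (4 to 6 a library, from 2 genes). The 2 genes named first, which were picked for this pattern, hold 192 of the ABA reads and all 15 PEG reads, and the other 10 genes hold 57 ABA reads, from 5 genes, and none in MS or PEG. Manes.07G075000, on the same stretch, had 23 reads in ABA and Manes.05G122700 had 18, both without a read elsewhere. As the 12 genes share their Arabidopsis match, the split of reads among copies is uncertain.

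The genes described as polygalacturonase 2 match AT1G70370, whose protein has a BURP domain and resembles the non-catalytic beta subunit of tomato polygalacturonase. Of the 4 tested, 3 rose under both treatments and 1 fell under both. Among all genes 32.9% rose and 33.4% fell under ABA, and 35.6% rose and 35.1% fell under PEG. Manes.13G030400 (chromosome 13, 2854809 to 2857112) had 0.853, 0.614 and 0.39 FPKM in MS, 10.9, 9.2 and 11 FPKM in ABA and 4.43, 4.67 and 4.38 FPKM in PEG. ABA was highest and MS lowest without overlap (log2 fold changes 4.14 and 2.74, standard errors 0.18 and 0.19). Its neighbour Manes.13G030600 (2875482 to 2878219) kept that order, with 4.28, 3.76 and 4.06 FPKM in MS, 19.6, 19.6 and 20.2 FPKM in ABA and 12.5, 13.1 and 13.2 FPKM in PEG (log2 fold changes 2.36 and 1.55, standard error 0.06 each). Both were lower under PEG than under ABA, by log2 differences of -1.40 and -0.81.

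Manes.14G066900 (chromosome 14, 5464124 to 5466280) had the other order, with 0.553, 0.453 and 0.587 FPKM in MS, 1.46, 1.2 and 1.1 FPKM in ABA and 4.52, 4.64 and 5.19 FPKM in PEG. It rose by log2 fold changes of 1.29 and 3.02 and was higher under PEG than under ABA by 1.74 (standard error 0.14, edgeR adjusted p = 2.43e-07). Manes.12G028800, the most expressed copy in MS at 6.19 ± 0.37 FPKM, fell to 3.44 ± 0.332 FPKM under ABA and was at 5.76 ± 0.0874 FPKM under PEG (log2 fold changes -0.78 and -0.24). The only match of polygalacturonase 4 had no read.

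Of the 6 rhamnogalacturonate lyases tested, 4 rose and 0 fell under ABA, where 32.9% and 33.4% of all genes did, and 1 rose and 2 fell under PEG, beside 35.6% and 35.1% of all genes. Manes.18G057400 (chromosome 18, 4940761 to 4951133), the most expressed, had 10.5, 10.7 and 10.1 FPKM in MS, 12.8, 13.5 and 13.1 FPKM in ABA and 18.8, 18.9 and 19.9 FPKM in PEG. It rose under both (log2 fold changes 0.40 and 0.75, standard error 0.05 each). Manes.13G102800 (chromosome 13, 22424854 to 22429488) had 3.81, 3.84 and 2.94 FPKM in MS, 10.7, 10.3 and 8.19 FPKM in ABA and 1.54, 1.63 and 1.09 FPKM in PEG. This gene rose under ABA and fell under PEG without overlap (log2 fold changes 1.53 and -1.44, standard errors 0.15 and 0.18), with PEG below ABA by -2.96 (standard error 0.17). Manes.05G188700 (chromosome 5, 26089051 to 26094817) had 14 reads in MS, 117 in ABA and 22 in PEG, and rose under ABA (log2 fold change 3.08, standard error 0.36) with 0.37 (standard error 0.50) under PEG, which did not pass. It passed the filter on low counts mainly through its ABA libraries, so a call under ABA could hardly have been a fall.

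Pectin acetylesterases, which remove acetyl groups from pectin, were the most abundant transcripts of the set. Of 10 tested, 3 rose and 3 fell under ABA (30% and 30%, near the 32.9% and 33.4% of all genes). Under PEG 5 rose and 3 fell (50% and 30%, beside 35.6% and 35.1% of all genes). Manes.15G187800 (AT4G19410 match, chromosome 15, 23357725 to 23360591) had 370, 376 and 378 FPKM in MS, 292, 312 and 306 FPKM in ABA and 262, 259 and 269 FPKM in PEG. It fell under both without overlap (log2 fold changes -0.24 and -0.64, standard error 0.03 each). Manes.09G182100 (AT5G26670 match, chromosome 9, 28944500 to 28948308) had 271, 272 and 238 FPKM in MS, 224, 215 and 232 FPKM in ABA and 121, 122 and 122 FPKM in PEG. Its fall under PEG was larger (log2 fold change -1.23, standard error 0.05) than that under ABA (-0.16, standard error 0.05, lost without ABA replicate 2), and PEG was below ABA by -1.08 (standard error 0.05, edgeR adjusted p = 1.17e-09).

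The third abundant gene, Manes.17G001600, matched *PAE8*, which deacetylates pectin in the Arabidopsis stem, and fell under ABA without passing under PEG, at 124 ± 2.21, 81.1 ± 0.852 and 142 ± 5.12 FPKM in MS, ABA and PEG (SD, n = 3). PEG was above ABA by a log2 difference of 0.61 (standard error 0.03). Together these 3 genes made up 54.1% ± 0.74 of the summed FPKM of the set in MS, 47.8% ± 0.377 in ABA and 38.7% ± 0.342 in PEG. The less expressed genes accounted for the rises. Under PEG these were led by Manes.08G106800 (log2 fold change 2.51, standard error 0.24) and the *PAE9* match Manes.06G148700 (1.39, standard error 0.11), whose neighbour and fellow *PAE9* match Manes.06G148800 fell (-1.03, standard error 0.24). Under ABA they were Manes.05G007200 (2.59, standard error 0.35), Manes.17G001900 (1.78, standard error 0.43) and Manes.06G148700 (0.50, standard error 0.11). Manes.05G007200 and Manes.08G106800, both matches of AT3G05910, together had only 455 reads over the 9 libraries, so their changes rest on few reads.

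The 2 PGIPs stand side by side on chromosome 9 and moved apart. Manes.09G031500 (4560233 to 4561411) had 47.1, 40.8 and 40.5 FPKM in MS, 8.68, 9.73 and 9.16 FPKM in ABA and 27.5, 26.2 and 31.3 FPKM in PEG. It fell under ABA (log2 fold change -2.15, standard error 0.09, edgeR adjusted p = 9.7e-10) and less under PEG (-0.73, standard error 0.08, edgeR adjusted p = 4.64e-06), the 2 treatments differing by 1.42 (standard error 0.09). Manes.09G031400 (4557524 to 4558504) had 3.95, 3.29 and 3.86 FPKM in MS, 3.16, 3.05 and 3.35 FPKM in ABA and 21.9, 24.4 and 24.6 FPKM in PEG. MS and ABA overlapped (log2 fold change -0.15, standard error 0.13, not passed) and PEG was far above both (2.54 against MS, standard error 0.10, edgeR adjusted p = 9.88e-10, and 2.69 against ABA, standard error 0.11). Both match the Arabidopsis gene AT5G06860 (*PGIP1*), so reads shared between the copies are possible.

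**Figure D5:**
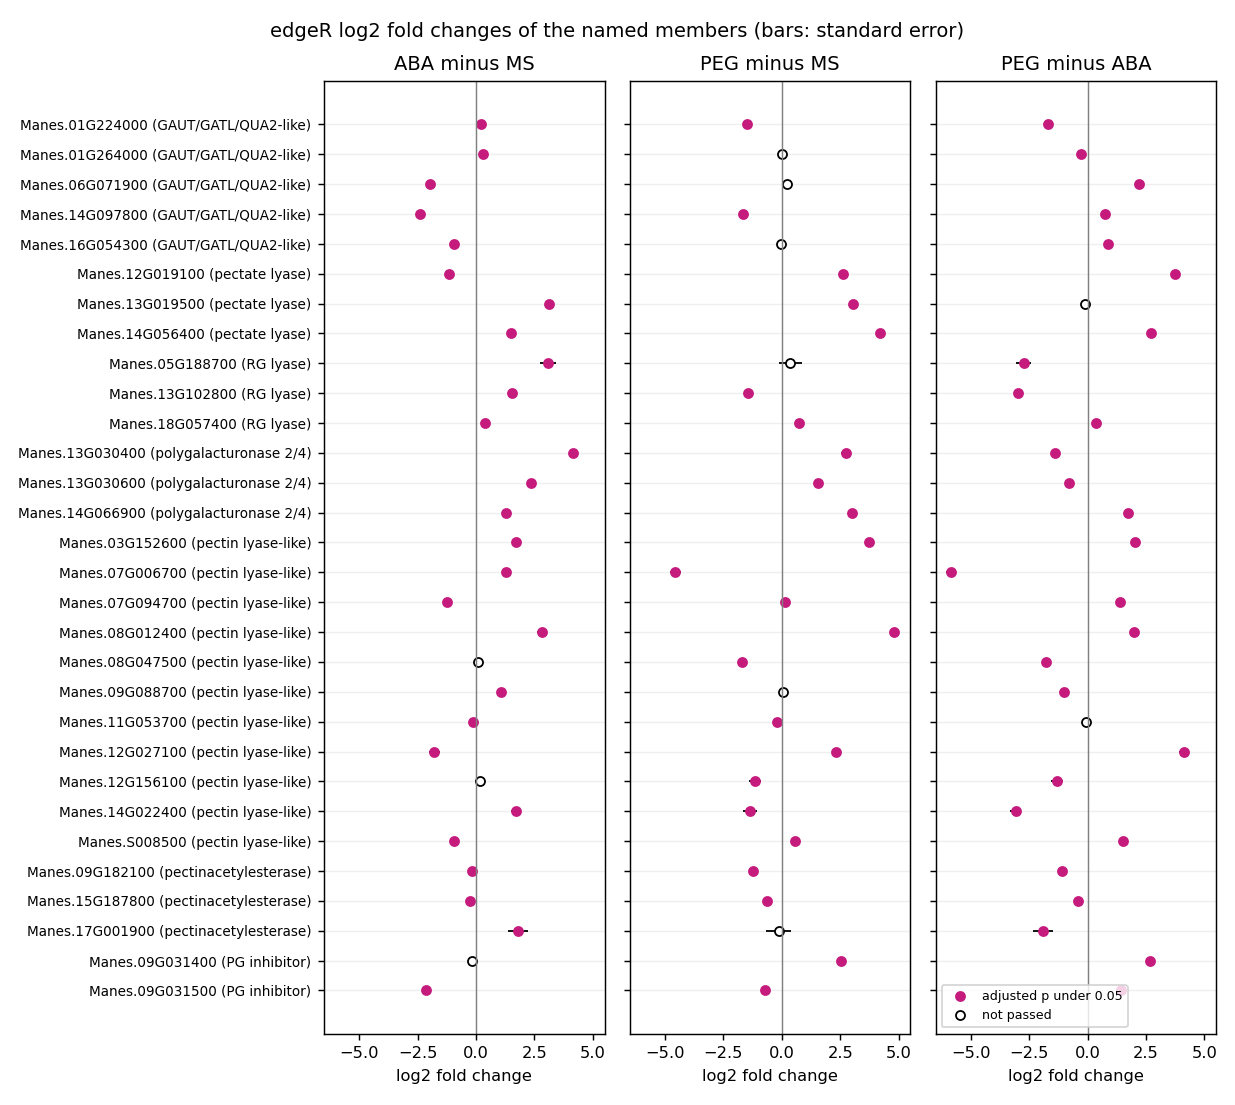
Log2 fold changes (points) with standard errors (bars) of the genes with reads in every group, for ABA against MS, PEG against MS and PEG against ABA, with filled points for an adjusted p under 0.05. The first 2 panels share the MS libraries. Manes.07G006700 has the lowest values in the PEG panels (-4.56 and -5.84), and the pectate lyases are to the right under PEG (2.60 to 4.19).

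Copies with the same nearest Arabidopsis gene were set side by side. The 64 tested genes that share their match with another tested gene form 43 pairs over 29 Arabidopsis genes. Under ABA both copies rose in 11 pairs and fell in 5, and in 8 pairs 1 rose and 1 fell, while in 17 only 1 passed and in 2 neither did. Under PEG both rose in 17 pairs and fell in 2, and 8 pairs moved in opposite directions, 11 had 1 that passed and 5 had none. In 13 of the 43 pairs the copies passed in opposite directions in at least 1 comparison, among them the PGIPs, the pectate lyases under ABA and the polygalacturonase 2 copies. A gene that enters several pairs is counted in each, the difference between copies was not tested, and pairs of unrelated genes would also hold opposite calls, since 32.9% of all genes rose and 33.4% fell under ABA and 35.6% rose and 35.1% fell under PEG.

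Related pectin genes outside the set were found by their descriptions, and their counts stand beside 32.9% of all genes rising and 33.4% falling under ABA and 35.6% and 35.1% under PEG. Of 22 tested genes that supply nucleotide sugars for pectin, 8 rose and 7 fell under ABA (36.4% and 31.8%, near the shares of all genes), and 2 rose and 10 fell under PEG. Among them Manes.14G147600, which matches UDP-D-glucuronate 4-epimerase 1 and makes the sugar donor of the GAUTs, fell under both (log2 fold changes -1.07 and -1.35). Other tested genes described as UDP-D-glucuronate 4-epimerase differed. Manes.15G056600 fell under both, Manes.03G144400 (-1.69) and Manes.01G266700 (-0.49) only under ABA, and Manes.05G046800 (-0.87) only under PEG. Manes.01G074000, Manes.06G136800 and Manes.14G033800 passed under neither. Of 22 beta-galactosidases and arabinofuranosidases tested, 9 rose and 6 fell under ABA and 11 rose and 6 fell under PEG. Enzymes of these families can strip pectin side chains, but the descriptions do not give the substrate of each gene. The most expressed of them, Manes.16G102400 (beta galactosidase 1), had mean levels of 474, 928 and 209 FPKM in MS, ABA and PEG (log2 fold changes 1.03 and -1.31). Of 15 wall-associated kinases, receptors that bind pectin, 0 rose and 9 fell under ABA and 4 rose and 6 fell under PEG. Of the 32 *MePMEs* tested, 11 rose and 15 fell under each treatment.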

How the data were processed

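RNA was sequenced from cassava leaves in 3 groups of 3 libraries (MS, ABA and PEG). The deposited table holds a read count and an FPKM value per gene and library. HISAT2 2.0.4 and StringTie 1.3.0 are the tools in the submitters' processing notes, which were read without their roles. The sources used here name neither the counting tool nor its strand setting or its treatment of reads with several matches. FPKM values deposited by the authors are printed as levels. The deposited counts were tested in R 4.3.3 with edgeR 4.0.16 (filterByExpr, TMM, glmQLFit, glmQLFTest) in 1 fit of the 9 libraries with group as the only term, and p-values were adjusted by Benjamini-Hochberg over 23984 genes with a threshold of 0.05. TMM scaling sets most genes near no change, so a small log2 fold change can differ in sign from the FPKM. The common coefficient of variation was 0.103, and pairs of replicates had a median chi-square of 0.662 to 0.843 over genes, above the 0.455 of pure sampling noise, so no libraries were merged. Genes named are, per role, the 2 with the highest mean FPKM, the 8 largest rises and falls under each treatment with a mean of at least 1 FPKM in a group and ranges that do not overlap, and genes with at least 30 reads in 1 group and 0 in another (32 in all). The other genes named are copies of these, or were chosen after their values were seen. The members and lists were chosen with earlier results of these data known. The script for the test was tested on simulated data. Alternatives were other scalings, filters, tests (DESeq2 1.42.0, limma 3.58.1 on log2(FPKM + 1) and log2(FPKM + 0.1)), a replicate block, fits of the groups compared only, leaving out each library and a 2-fold limit. No sequence is printed, the planned motif search in promoters was not run, and the coordinates are those of the deposited table (cassava genome v6.1).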

Additional observations from a re-analysis of the deposited data

How the results depend on the processing

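Counts of genes that passed stayed within 1.5 times in every alternative but the 2-fold limit, which left 28 genes under ABA (22 rose, 6 fell), 33 under PEG (23 rose, 10 fell) and 35 between PEG and ABA (19 higher, 16 lower under PEG), since it adds a condition. In no alternative did a gene that had passed pass in the opposite direction. Leaving out 1 library gave 61 to 66 genes changed under ABA (35 to 38 rose, 25 to 28 fell), 60 to 66 under PEG (37 to 42 rose, 21 to 24 fell) and 65 to 73 between PEG and ABA (36 to 37 higher, 29 to 36 lower). Scaling mattered most for small changes: with library size alone the median of all genes moved by 0.133 (log2) under PEG and 0.197 between PEG and ABA, the share of calls upward over all genes went from 50.4% to 61.0% and from 52.4% to 65.3%, and the pectin genes split 48 to 18 under PEG and 44 to 27 between PEG and ABA, while 59 of the 65 PEG calls kept their direction. Replicate numbers did not pair the libraries (correlations of same-numbered deviations -0.038 to 0.068), and a replicate block gave 64, 66 and 72 genes changed under ABA, PEG and between them. Of 1725 values of the named genes 13 turned sign, all but those of Manes.11G053700 on differences that had not passed and did not pass. Under PEG, Manes.16G054300 came to 0.08 unscaled and 0.07 and 0.08 with limma, Manes.05G188700 to -0.09 without MS replicate 2 (range without 1 library -0.09 to 0.82), and Manes.17G001900 to 0.01 with limma (pseudocount 1), 0.60 without MS replicate 3 and 0.28 without PEG replicate 3 (range -0.52 to 0.60). Between PEG and ABA, Manes.13G019500 came to 0.08 unscaled and 0.07 and 0.08 with limma, and Manes.11G053700 to 0.15 unscaled and 0.14 and 0.15 with limma, where it passed. The cause of these turns was not tested. Depth limits genes below about 1 FPKM, such as the *GAUT12* and *QUARTET3* matches.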
